A study of Mus musculus with 6 samples.

Results

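The genes described here are the 155 rows of the count table that start within a 10-Mb window of mouse chromosome 4, with starts from 115000159 (Stil) to 124986430 (Rspo1) in GRCm38, and have 10 or more reads in at least 2 of the 6 testis libraries. The table has 331 rows in this window, of which 97 were at 0 in every library and 79 had some reads but did not reach the minimum. Over the whole table, 20942 of 55536 rows reached it. The window ends before the Padi gene cluster of the same chromosome: its first gene starts 25.9 Mb and its last 15.9 Mb before Padi2. Of the 155 genes, 127 are annotated as protein coding, 23 as antisense or other non-coding transcripts and 5 as pseudogenes. Another annotated gene overlaps 88 of them, in 72 cases on the other strand.

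The study sequenced poly(A) RNA from whole testes of 4-month-old males of 3 inbred homozygous genotypes, with 2 libraries of each. WT was FVB/NJ. P2KO carried a Padi2 null allele, in which a LacZ and neomycin gene trap takes the place of part of exon 1. DKO carried that same Padi2 allele and a 4-nucleotide deletion in exon 1 of Padi4, introduced with CRISPR/Cas9 into Padi2-null embryos, and descends from a single founder. All 3 genotypes share the FVB/NJ background, both mutant genotypes share the Padi2 allele, and the Padi4 deletion is present in the DKO line alone, so that the deletion and any other change fixed in that line cannot be told apart.

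Padi2 and Padi4 belong to the peptidylarginine deiminase genes. In the presence of calcium their products make citrulline out of arginine within proteins such as histones. Genes that lie near each other on a chromosome tend to be inherited together, and a stretch of this length holds genes of unrelated functions that are transcribed from their own promoters. In the testis, most RNA comes from germ cells at successive stages of meiosis and of sperm head and tail formation, and a smaller part from Sertoli and Leydig cells.

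Library totals ranged from 21939393 to 27306679 reads, and the 155 genes held between 0.956% and 0.982% of them. Padi2 had 47 and 64 reads in WT, 100 and 55 in the libraries labelled P2KO and 59 and 83 in those labelled DKO, so the Padi2 read count did not mark the knockout genotypes. Padi4 had 20 and 43 reads in WT, 11 and 10 in P2KO and 4 in each DKO library. The defining markers of spermatogonia, spermatocytes, round and elongating spermatids and Sertoli cells were all measured in all libraries, and none of 5 epididymis epithelium markers reached the count minimum of the test. The summed normalised counts of 5 Leydig cell markers were between 15606 and 16028 in WT, between 16447 and 18431 in P2KO and between 16918 and 20702 in DKO, and 4 of the 5 differed between DKO and WT. A sum is governed by its most abundant marker, and the directions of single markers are not given here or for the lists that follow. The sums of 5 elongating spermatid markers were between 334983 and 347324 in WT, between 283774 and 314324 in P2KO and between 305953 and 306767 in DKO, with 2 of the 5 differing between DKO and WT and 1 between P2KO and WT. The sums of 5 spermatogonia markers did not overlap between genotypes, at 1383 to 1467 in WT, 1515 to 1599 in P2KO and 1324 to 1358 in DKO, and none of the 5 was called by edgeR. 1 of 5 round spermatid markers differed between DKO and P2KO, and of 3 adipocyte markers tested 1 differed between P2KO and WT and 1 between DKO and P2KO. The part of these cell types in the values below was not tested, and in whole tissue fewer cells of a type and less RNA per cell cannot be told apart.

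In DKO testes, 18 of the 155 genes differed from WT, 11 higher and 7 lower (edgeR quasi-likelihood test, adjusted p under 0.05, here termed called). This is 11.6% of the genes in the window, beside 3.22% of the 20744 genes tested over the genome. Against P2KO, 13 were called in DKO, 9 higher and 4 lower, which is 8.39% beside 1.21% of all genes. Between P2KO and WT, 0 of the 155 genes were called, beside 0.337% of all genes. For that comparison edgeR gave 14 genes with an unadjusted p under 0.05, or 9.03% of the window beside 8.57% of all genes, and DESeq2 also called 0. The 3 comparisons share their libraries in pairs and are not independent of each other. Normalised counts below are counts divided by the library's TMM-scaled size, taken relative to the geometric mean size of the 6 libraries.

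2 of the called genes, 1700021J08Rik and 9530002B09Rik, reached the count minimum through DKO alone and therefore had to differ between genotypes. Without them, 16 of 153 genes were called against WT and 11 of 153 against P2KO. The number of calls against WT also rested on both DKO libraries, since it was 9 without DKO replicate 1 and 10 without DKO replicate 2, beside 1.59% and 1.15% of all genes in these fits. 1 library then stood for the DKO genotype, with the spread of the other groups assumed for it. Without WT replicate 1, 2 genes, Macf1 (log2 fold change 0.31, adjusted p by edgeR 0.0105) and Svbp (-0.26, adjusted p 0.0424), were called between P2KO and WT, beside 1.43% of all genes.

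The called differences went in both directions. Over the 155 genes, log2 fold changes had a median of 0.01 against WT and 0.02 against P2KO, beside 0.00 for all tested genes in both comparisons. An unadjusted p under 0.05 was found for 38 genes (24.5%) against WT, beside 14.1% of all genes, and for 42 (27.1%) against P2KO, beside 11.8%. The median size of the log2 fold change, whatever its sign, was 0.128 against WT, beside 0.126 for all genes, and 0.142 against P2KO, beside 0.119. The 137 genes that were not called against WT had log2 fold changes from -1.26 for Gm12905 to 1.24 for Kncn, both of them low-count genes, and 100 of the 137 lay within 0.2 of 0. Among the 18 called genes, 2 rose and 3 fell by 2-fold or more, and 9 changed by less than 0.5 on the log2 scale.

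**Figure D1:**
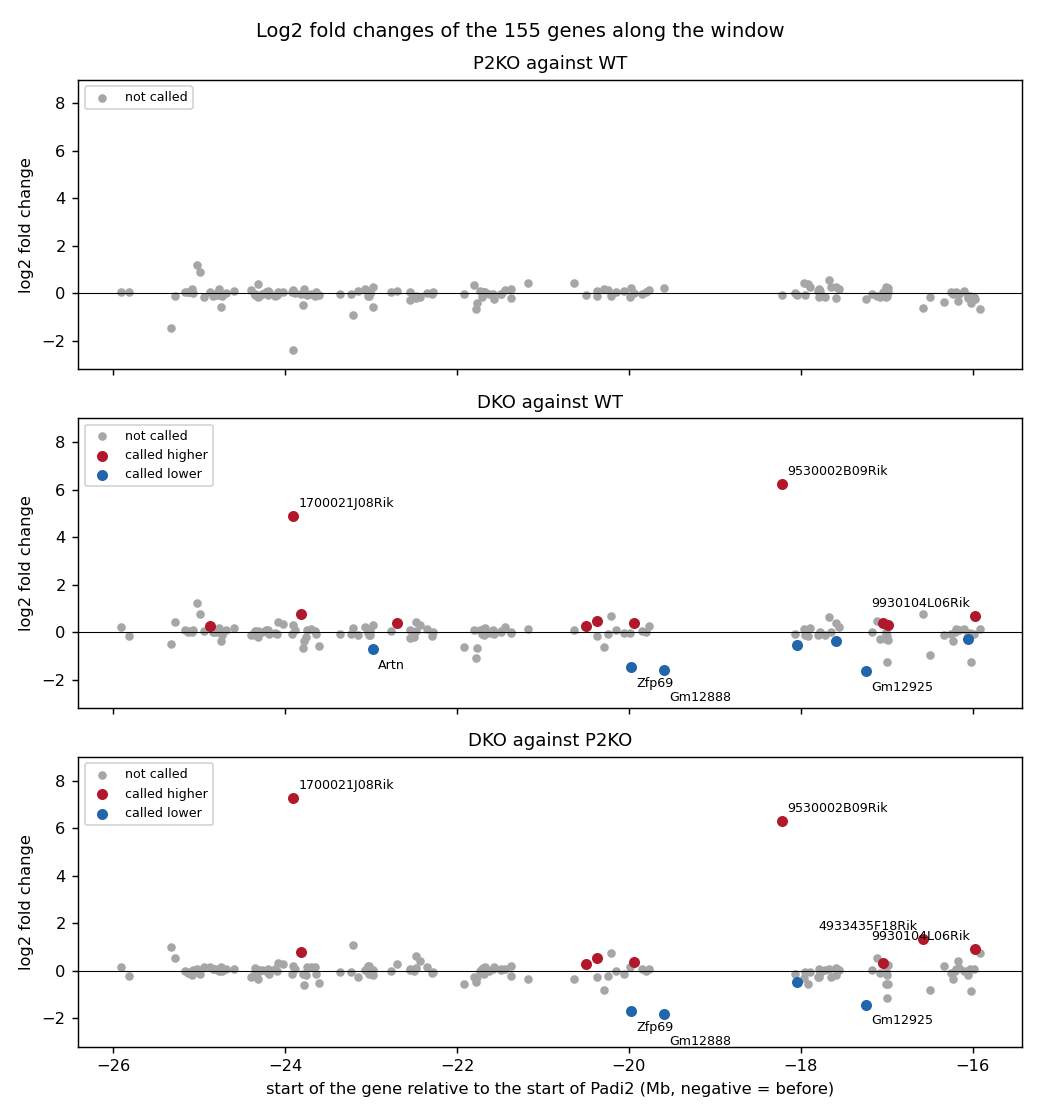
Fitted log2 fold change (y axis) of each of the 155 genes against the distance of its start from the start of Padi2 in Mb (x axis, negative values lie before Padi2), in 3 panels for P2KO against WT, DKO against WT and DKO against P2KO. Grey points are genes that were not called, and red and blue points are genes called higher and lower. 0 genes were called in the upper panel, 18 in the middle and 13 in the lower, and called genes of both directions stand among uncalled neighbours.

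12 genes were called in DKO against both other genotypes, each in the same direction, 6 were called against WT alone and 1 against P2KO alone. Both comparisons use the same DKO libraries, so a shared direction is not independent support. The share of all genes called in both was not counted. That a gene was called against one genotype and not against the other does not show that the 2 contrasts differ.

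The largest fold differences were those of 9530002B09Rik and 1700021J08Rik, both nearly without reads outside DKO. 9530002B09Rik (ENSMUSG00000023263, chr4:122689275-122705129, plus strand) is an annotated protein-coding gene named here by its clone identifier. WT gave 2 and 0 reads, P2KO likewise 2 and 0, and DKO 89 and 80. The ratio of DKO to WT reads, scaled for library size, was 83.7, with an exact 95% counting interval of 22.8 to 697, and that of DKO to P2KO was 87.9, with an interval of 24.0 to 732. These intervals cover counting error only. Since the gene was tested only because of its DKO reads, no p is given for it. The gene has no annotated overlap, and the next counted genes, Gm12888 and Ppt1, lie 1364.4 kb before and 131.1 kb after it.

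The 250 bases before its RefSeq start, which differs by a few bases from the start in the annotation used for the coordinates above, are printed because this gene had the largest fold difference against WT. They were read from the RefSeq promoter table of GRCm38.p6, chr4:122689009-122689258, plus strand, 5′ to 3′.
9530002B09Rik: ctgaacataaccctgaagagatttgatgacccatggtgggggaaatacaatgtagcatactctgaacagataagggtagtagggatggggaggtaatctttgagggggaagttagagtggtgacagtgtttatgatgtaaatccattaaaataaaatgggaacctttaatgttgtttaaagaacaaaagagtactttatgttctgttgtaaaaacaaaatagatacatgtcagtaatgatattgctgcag
The stretch has 36.4% G and C and 0 CpG dinucleotides. None of the 4 motifs searched on both strands, the GC box GGGCGG, the CCAAT box CCAAT, the TATA box TATAAA and the core TGACG of the cyclic AMP response element, was found in it, which says only that these letters are not in this window of bases. Over 32817 promoter entries of the same length, 32.7% held the GC box, 33.8% the CCAAT box, 12.4% the TATA box and 17.7% the TGACG core. Of the genes in the window, 123 have an entry, and 60.2%, 39%, 4.88% and 19.5% of these entries held the same motifs.

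1700021J08Rik (ENSMUSG00000086890, chr4:117002166-117003012, minus strand) is annotated as an antisense transcript and lies inside Hectd3, a ubiquitin ligase gene of the plus strand. WT gave 3 reads in each library, P2KO 1 and 0, and DKO 102 and 87. The scaled ratio of DKO to WT reads was 31.2, with an exact 95% counting interval of 14.1 to 86.1, and that of DKO to P2KO was 197, with an interval of 34.9 to 7.80e+03. As for 9530002B09Rik, no p is given. Hectd3 itself had normalised counts of 341 and 327 in WT, 349 and 381 in P2KO and 429 and 399.7 in DKO, a log2 fold change of 0.31 ± 0.107 (SE) against WT with an adjusted p of 0.118. The 1700021J08Rik reads amounted to 0.228 and 0.231 of the Hectd3 reads in the DKO libraries and to at most 0.0099 of them in the other 4. The libraries kept strand, but the strand setting of the count column is not given in the sources used here, so reads of antisense pairs such as this one may have been assigned to either gene.

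Among the genes measured in all genotypes, Zfp69 showed one of the largest decreases. Zfp69 (ENSMUSG00000064141, chr4:120930137-120951699, minus strand) encodes a KRAB zinc finger protein, a family of DNA-binding repressors. Its normalised counts were 169 and 173 in WT, 199 and 198 in P2KO and 69.9 and 51.9 in DKO. Both DKO libraries were below every other library. The decrease was 2.79-fold against WT (log2 fold change -1.48 ± 0.175, SE, adjusted p by edgeR 3.37e-07) and 3.23-fold against P2KO (-1.69 ± 0.171, adjusted p 1.63e-08). No annotated gene overlaps Zfp69, and its neighbours did not share the decrease. Exo5, an exonuclease gene 5.1 kb before it, had a log2 fold change of -0.02 (adjusted p 0.977), and Smap2, 16.6 kb after it, was higher in DKO.

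Slfnl1 was the most highly expressed gene among those called against both genotypes. Slfnl1 (ENSMUSG00000047518, chr4:120532231-120536661, plus strand) encodes a schlafen-like protein. In WT it stood at 4597 normalised counts per kb of exon, the fifth of the 155 genes on this per-length scale. Its normalised counts were 8200.0 and 8001 in WT, 7830.3 and 7367 in P2KO and 11089 and 11096 in DKO. The increase was 1.37-fold against WT (log2 fold change 0.45 ± 0.0560, SE, adjusted p by edgeR 7.56e-07) and 1.46-fold against P2KO (0.55 ± 0.0560, adjusted p 2.15e-08). Scmh1, a Polycomb group gene that ends 2.0 kb before Slfnl1 on the same strand, was also higher in DKO. It had normalised counts of 2813 and 2852 in WT, 2743 and 2661 in P2KO and 3404 and 3266 in DKO, with log2 fold changes of 0.24 ± 0.0615 against WT (adjusted p by edgeR 0.0219) and 0.30 ± 0.0615 against P2KO (adjusted p 0.00421). Ctps, the CTP synthase gene 3.2 kb after Slfnl1 on the other strand, had a log2 fold change of -0.16 (adjusted p 0.557).

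The upstream sequences of Zfp69 and Slfnl1 are printed for comparison because they belong to genes of one 1-Mb stretch that moved in opposite directions. Capitals mark the motifs found, on either strand. Both come from the RefSeq table of GRCm38.p6, at chr4:120951702-120951951 on the minus strand (the first of the Zfp69 entries) and chr4:120531981-120532230 on the plus strand.
Zfp69: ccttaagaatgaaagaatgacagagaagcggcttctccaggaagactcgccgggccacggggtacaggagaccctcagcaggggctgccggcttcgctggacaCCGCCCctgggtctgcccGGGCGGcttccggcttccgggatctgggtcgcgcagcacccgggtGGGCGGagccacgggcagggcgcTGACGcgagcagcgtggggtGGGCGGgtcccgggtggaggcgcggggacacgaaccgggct
Slfnl1: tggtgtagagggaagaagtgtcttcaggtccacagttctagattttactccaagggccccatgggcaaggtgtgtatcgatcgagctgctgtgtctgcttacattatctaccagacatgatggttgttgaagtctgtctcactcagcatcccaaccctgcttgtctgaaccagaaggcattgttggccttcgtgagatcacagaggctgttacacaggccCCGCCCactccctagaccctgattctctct
The Zfp69 sequence has 71.2% G and C, 26 CpG dinucleotides, 4 GC boxes and 1 TGACG core. The Slfnl1 sequence has 51.2% G and C, 4 CpG dinucleotides and 1 GC box. These matches describe the letters and are not evidence of binding.

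Smap2 and 2 uncharacterised genes, 4933427I04Rik and 9930104L06Rik, were also higher in DKO than in both other genotypes. Smap2, which encodes an Arf GTPase-activating protein of clathrin-coated vesicle traffic and has a part in acrosome formation, had normalised counts of 857 and 817 in WT, 825 and 872 in P2KO and 1092 and 1069 in DKO. It was 1.29-fold higher than WT (log2 fold change 0.37 ± 0.0779, adjusted p by edgeR 0.00293) and 1.27-fold higher than P2KO (0.35 ± 0.0775, adjusted p 0.0108). 4933427I04Rik had normalised counts of 1348.5 and 1364.5 in WT, 1424 and 1404 in P2KO and 1701 and 1845 in DKO, with log2 fold changes of 0.39 and 0.33 (adjusted p by edgeR 4.06e-04 and 0.00692). A transcript of another gene shares 99.2% of 247 bases with it, so some of its reads may be shared.

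9930104L06Rik overlaps 2.3 kb at the 5′ end of Cdca8, which is on the other strand. It had normalised counts of 109 and 136 in WT, 104.7 and 105.4 in P2KO and 195 and 200.4 in DKO. The log2 fold change was 0.68 ± 0.153 (SE) against WT (adjusted p by edgeR 0.00604) and 0.91 ± 0.156 against P2KO (adjusted p 4.59e-04). Cdca8, which encodes borealin of the chromosomal passenger complex, had a log2 fold change of -0.08 against WT (adjusted p 0.667). The ratio of 9930104L06Rik to Cdca8 reads was 0.0610 and 0.0729 in WT, 0.0624 and 0.0642 in P2KO and 0.109 and 0.120 in DKO.

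Cap1, Gm12925 and Gm12888 were lower in DKO than in both other genotypes. Cap1 (ENSMUSG00000028656, chr4:122859047-122886056, minus strand) encodes an adenylyl cyclase-associated protein that recycles actin. Its normalised counts were 4040 and 3814 in WT, 3781 and 3750.5 in P2KO and 2787 and 2574 in DKO. It was 1.46-fold lower than WT (log2 fold change -0.55 ± 0.0626, SE, adjusted p by edgeR 1.47e-07) and 1.40-fold lower than P2KO (-0.49 ± 0.0626, adjusted p 2.77e-06). Its 3′ end meets that of Ppt1, the palmitoyl-protein thioesterase gene, in an overlap of 0.1 kb, and Ppt1 had a log2 fold change of -0.10 against WT (adjusted p 0.491). The ratio of Cap1 to Ppt1 reads was 1.04 and 0.983 in WT, 0.995 and 0.907 in P2KO and 0.760 and 0.719 in DKO.

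Gm12925 (ENSMUSG00000087307, chr4:123665881-123671217, plus strand) is an antisense transcript inside Macf1, a gene for a protein that links microtubules and actin. Its normalised counts were 444 and 459 in WT, 369.9 and 407 in P2KO and 147.5 and 142 in DKO. It was 3.12-fold lower than WT (log2 fold change -1.64 ± 0.121, SE, adjusted p by edgeR 2.69e-12) and 2.67-fold lower than P2KO (-1.42 ± 0.122, adjusted p 2.64e-10). Macf1 had a log2 fold change of 0.23 ± 0.0769 against WT (adjusted p by edgeR 0.105), and the ratio of Gm12925 to Macf1 reads was 0.162 and 0.198 in WT, 0.142 and 0.130 in P2KO and 0.0519 and 0.0461 in DKO. Macf1 was not called against P2KO either. Gm12888, an uncharacterised protein-coding gene, had normalised counts of 28.2 and 27.8 in WT, 36.4 and 28.7 in P2KO and 5.75 and 12.7 in DKO, with log2 fold changes of -1.61 ± 0.427 and -1.84 ± 0.413 (adjusted p by edgeR 0.0250 and 0.0124). The log2 fold change against WT without DKO replicate 2 was -2.26 and without DKO replicate 1 -1.13, and the latter was not called.

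**Figure D2:**
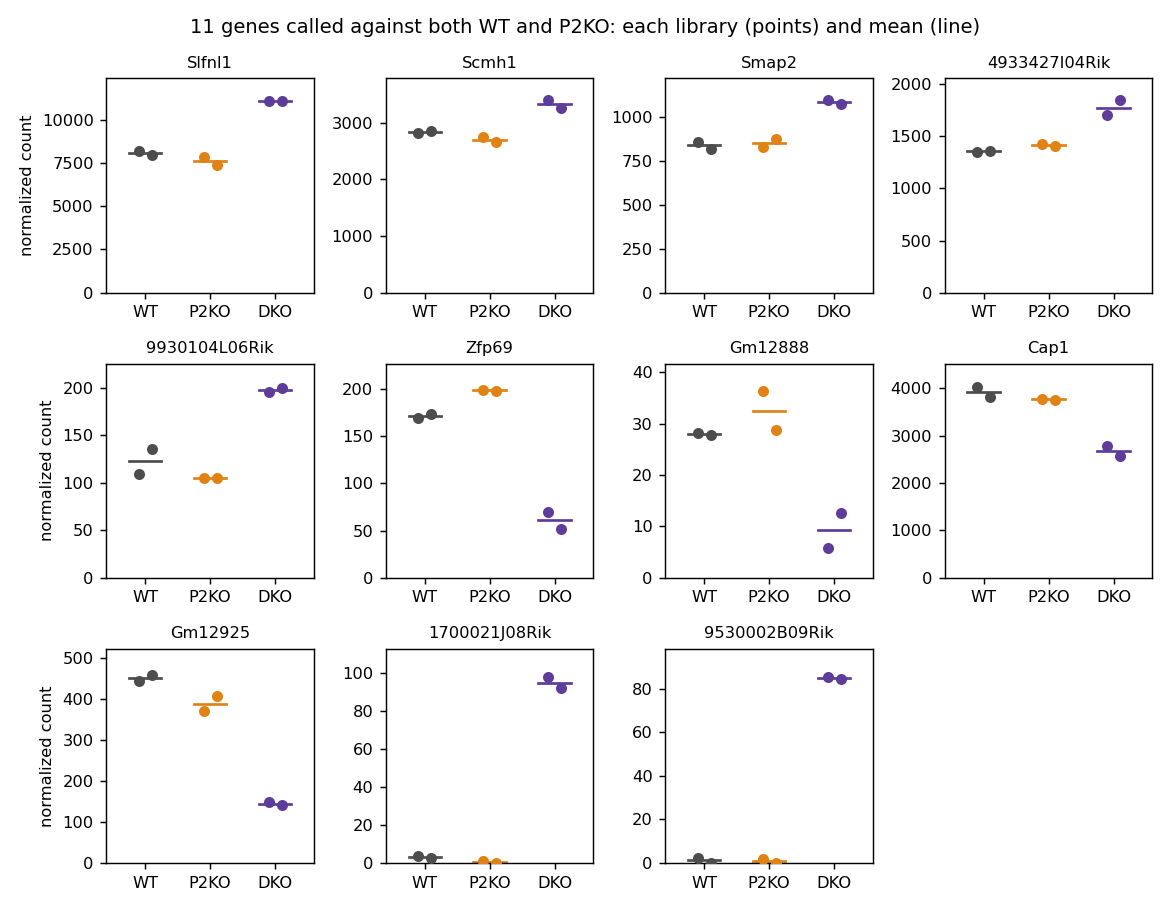
Normalised count (y axis, from 0) in each of the 6 libraries (points) with the genotype mean (line) for 11 of the genes called in DKO against both WT and P2KO, 1 panel per gene. 7 of these were higher and 4 lower in DKO, and in every panel both DKO points lie outside the range of the other 4. The genes were picked as called, so this separation is no added support.

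Against WT alone, 6 further genes were called in the fit of all 6 libraries. When only the DKO and P2KO libraries were fitted, edgeR also called Nsun4 (adjusted p 0.0312), Oxct2a (0.0291) and Ptprf (0.0301) against P2KO. DESeq2 on the same libraries called Nsun4 (adjusted p 0.0278) and Oxct2a (0.0146). Oxct2a encodes a testis form of the transferase that activates ketone bodies for energy use in sperm. Its normalised counts were 8612 and 8451 in WT, 7515 and 7595 in P2KO and 6648 and 6689 in DKO, in which the 3 genotypes do not overlap. Oxct2a was 1.28-fold lower in DKO than in WT (log2 fold change -0.36 ± 0.0556, SE, adjusted p by edgeR 5.56e-05). The difference between P2KO and WT was -0.18, with an unadjusted p of 0.00327 and an adjusted p of 0.255, and that between DKO and P2KO was -0.18 with an adjusted p of 0.117.

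Oxct2b is a copy of Oxct2a in the same window, and the 2 transcripts are 98.0% identical over 1735 bases, so that reads which match both cannot be assigned with certainty. Oxct2b had normalised counts of 8127 and 7936 in WT, 7019.6 and 7275 in P2KO and 7692 and 7379.9 in DKO, a log2 fold change of -0.09 ± 0.0564 (SE) against WT with an adjusted p by edgeR of 0.504. The ratio of Oxct2a to Oxct2b reads was 1.06 in both WT libraries, 1.07 and 1.04 in P2KO and 0.864 and 0.906 in DKO. The DKO ratios were below 1 and the others above it. Oxct2a lies within Bmp8a, and Oxct2b overlaps Bmp8b. Their upstream sequences are printed because the transcripts are near-identical and the stretches before their starts are less so. They are the RefSeq entries at chr4:123323680-123323929, minus strand, and chr4:123115998-123116247, plus strand, of GRCm38.p6, with the motif found in capitals.
Oxct2a: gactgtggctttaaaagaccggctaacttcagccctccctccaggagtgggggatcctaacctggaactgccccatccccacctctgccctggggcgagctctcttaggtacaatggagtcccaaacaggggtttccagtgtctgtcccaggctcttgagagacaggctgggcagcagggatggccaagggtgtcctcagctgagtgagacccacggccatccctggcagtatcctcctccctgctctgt
Oxct2b: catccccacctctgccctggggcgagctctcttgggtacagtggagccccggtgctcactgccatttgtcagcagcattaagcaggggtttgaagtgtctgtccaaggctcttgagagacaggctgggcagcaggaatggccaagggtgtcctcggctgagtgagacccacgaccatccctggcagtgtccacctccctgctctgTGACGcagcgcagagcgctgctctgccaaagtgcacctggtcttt
Over 206 aligned positions the sequences were 80.1% identical, with 12 mismatches and 29 gap positions. The aligned part ran from base 74 to 250 of the Oxct2a sequence and from base 1 to 206 of the Oxct2b sequence. The Oxct2b sequence holds 1 TGACG core and 7 CpG dinucleotides, and the Oxct2a sequence holds none of the motifs searched and 3 CpG dinucleotides. The TGACG core begins at the last aligned base, where the Oxct2a sequence ends. The windows are thus offset, and these counts do not show a difference between the copies.

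**Figure D3:**
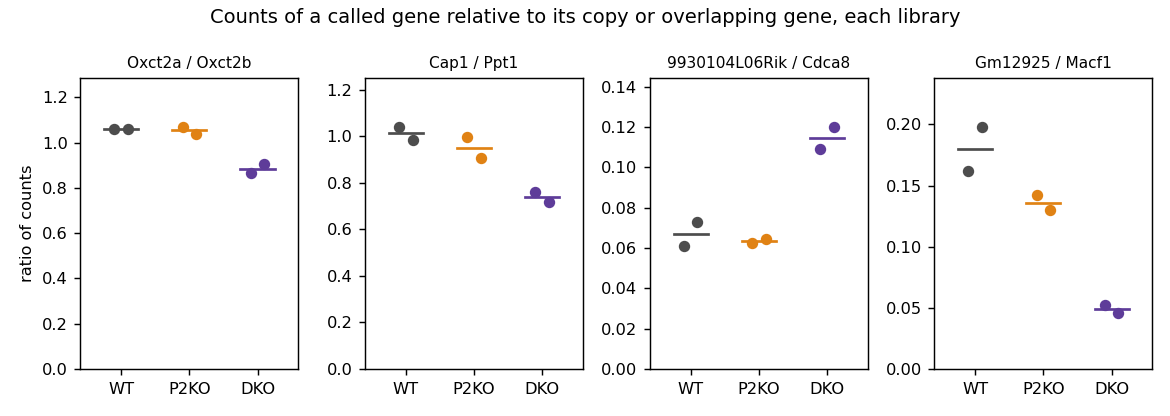
Ratio of the read counts (y axis, from 0) of a called gene to its copy (Oxct2a to Oxct2b) or to the gene it overlaps on the other strand (Cap1 to Ppt1, 9930104L06Rik to Cdca8, Gm12925 to Macf1) in each of the 6 libraries (points) with the genotype mean (line). In each panel both DKO ratios lie outside the range of the WT and P2KO ratios, above them for 9930104L06Rik and below them for the other 3 genes. These pairs hold genes picked as called, so their separation is no added support.

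The remaining genes called against WT alone changed by smaller amounts or at lower counts. Nsun4, which encodes a methyltransferase of mitochondrial ribosomal RNA, had normalised counts of 7131 and 6822.5 in WT, 6976 and 7565 in P2KO and 8138 and 8338 in DKO, with a log2 fold change of 0.24 ± 0.0579 (SE, adjusted p by edgeR 0.0113). Ptprf, the gene of the receptor tyrosine phosphatase LAR, had 822 and 639 in WT, 729 and 846 in P2KO and 925 and 986 in DKO, with a log2 fold change of 0.39 ± 0.0948 (adjusted p 0.0112). Rragc, a Rag GTPase gene of amino acid signalling to mTORC1, had 943 and 955 in WT, 942 and 1025 in P2KO and 1188 and 1127 in DKO, with a log2 fold change of 0.29 ± 0.0766 (adjusted p 0.0263). These 3 genes were higher in both DKO libraries than in every other library, which adds no support to calls already made.

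The last pair called against WT alone was lower in DKO. 1110065P20Rik had normalised counts of 1664 and 1573 in WT, 1549 and 1428 in P2KO and 1352 and 1281 in DKO, with a log2 fold change of -0.30 ± 0.0713 (SE, adjusted p by edgeR 0.0109). It overlaps the 3′ end of Mtf1 and the 5′ end of Yrdc, both on the other strand, which had log2 fold changes of 0.12 and -0.17 (adjusted p 0.360 and 0.409). Artn, the gene of the GDNF family ligand artemin, had 128 and 155 in WT, 112 and 79.8 in P2KO and 77.6 and 96.5 in DKO, with a log2 fold change of -0.71 ± 0.187 (adjusted p 0.0232). The P2KO and DKO libraries of Artn overlapped, and the P2KO difference from WT was -0.56 (unadjusted p 0.00452, adjusted p by edgeR 0.285).

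Against P2KO alone, 1 gene was called. 4933435F18Rik, a long intergenic non-coding RNA, had normalised counts of 25.9 in each WT library, 15.1 and 19.2 in P2KO and 52.7 and 33.9 in DKO. Its log2 fold change was 1.35 ± 0.337 (SE, adjusted p by edgeR 0.0304) against P2KO and 0.75 ± 0.315 (adjusted p 0.245) against WT. The call against P2KO was lost without DKO replicate 1 and without either P2KO library.

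Not all of these calls held when single libraries were left out. Against WT, the calls of Nsun4, Ptprf, Rragc, 1110065P20Rik, Artn, Scmh1 and 9930104L06Rik were each lost without DKO replicate 1 and without DKO replicate 2. The call of Smap2 was lost without DKO replicate 1, that of 4933427I04Rik without DKO replicate 2 and that of Gm12888 without DKO replicate 1 or WT replicate 2. Nsun4, Artn, Ptprf and Rragc also lost it without WT replicate 2, and Rragc and 9930104L06Rik without WT replicate 1. Against P2KO, Scmh1, Smap2 and Gm12888 lost the call without DKO replicate 1, Smap2 and 4933427I04Rik without DKO replicate 2, Smap2, Gm12888 and 4933427I04Rik without P2KO replicate 1, and Scmh1 and 4933427I04Rik without P2KO replicate 2. Leaving out a WT library moved the log2 fold change of Ptprf from 0.39 to 0.58 (without WT replicate 1) or 0.22 (without WT replicate 2), and leaving out a DKO library moved that of Gm12888 against WT to -1.13 (without DKO replicate 1) or -2.26 (without DKO replicate 2). DESeq2 on all 6 libraries did not call Artn, Ptprf, Rragc and 9930104L06Rik against WT and gave no adjusted p for 1700021J08Rik, 9530002B09Rik and Gm12888. On the compared genotypes alone it did not call Artn, Ptprf, Rragc, 9930104L06Rik, Scmh1, Gm12888 and 1110065P20Rik. Against P2KO, DESeq2 gave no adjusted p on all 6 libraries for 1700021J08Rik, Gm12888, 9530002B09Rik and 4933435F18Rik. On the compared genotypes alone it gave none for these and for Zfp69, Smap2, Gm12925 and 9930104L06Rik, and it called Scmh1, Slfnl1, Cap1 and 4933427I04Rik in both fits. With a replicate block, edgeR did not call Artn (adjusted p 0.0545) and Gm12888 (adjusted p 0.0508) against WT and 4933435F18Rik (adjusted p 0.0680) against P2KO.

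The role lists held 100 of the 155 genes, and the other 55 were in none. Over all tested genes, 2.06% were called higher and 1.16% lower in DKO against WT, and whether any list differs from this was not tested. Grouped by known role, 3 of 11 receptor, ligand and signalling genes rose against WT, Ptprf and Rragc among them, and Artn fell. Of 19 transcription and chromatin genes, Scmh1 rose and Zfp69 fell, and 17 were not called, among them Ybx1, a nucleic acid-binding Y-box gene (-0.04, adjusted p by edgeR 0.816). Of 7 cytoskeleton and trafficking genes, Smap2 rose and Cap1 fell. Of 13 germ cell, sperm and cilium genes, Slfnl1 rose and Oxct2a fell, and 11 were not called, among them the histone chaperone gene Nasp (-0.04, adjusted p by edgeR 0.801). Nsun4 was the one gene called among 13 RNA and translation genes. Scmh1, Zfp69, Smap2, Cap1 and Slfnl1 were also called against P2KO.

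None of 8 mitosis and DNA repair genes, 18 metabolic and mitochondrial genes, 7 membrane transport genes and 3 ubiquitin ligase genes was called by edgeR in any comparison. Of all genes, 3.22% were called in DKO against WT, 1.21% in DKO against P2KO and 0.337% in P2KO against WT. At such shares, the lack of calls in lists this short does not set them apart. Log2 fold changes against WT ranged from -0.39 for Plk3 to 0.21 for Stil in the mitosis and repair list, and from -0.26 for Hyi to 0.42 for Hpdl in the metabolic list. The spindle genes Kif2c and Cdc20, well expressed in all libraries, had log2 fold changes of 0.10 (adjusted p by edgeR 0.450) and 0.03 (adjusted p 0.897). Of 10 cytochrome P450 family 4 genes, which form a cluster at the start of the window, Cyp4b1 alone reached the count minimum, and it was not called. By annotation class, 16 of 127 protein-coding genes (12.6%) and 2 of 23 non-coding genes (8.70%) were called against WT, beside 3.22% of all genes, and 10 of 127 (7.87%) and 3 of 23 (13.0%) against P2KO, beside 1.21%. These counts include 9530002B09Rik among the protein-coding and 1700021J08Rik among the non-coding genes, which had to differ between genotypes. The difference between the classes was not tested.

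The genes with the highest level per kb of exon in WT were Ybx1 (15599 normalised counts per kb), Tmco2 (6247), Oxct2a (4847.5), Oxct2b (4629) and Slfnl1 (4597), beside a median of 80.6 over the 155 genes and a minimum of 1.09 for Dmbx1. Of these 5, Oxct2a and Slfnl1 were called against WT. Tmco2, which encodes a testis-expressed transmembrane protein, had a log2 fold change of 0.02 (adjusted p by edgeR 0.918).

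Along the window, called genes were interrupted by runs of uncalled ones. Against P2KO, none of the first 39 genes, from Stil to Hectd3, was called. Against WT, the longest runs without a call were 26 genes from Uqcrh to Hectd3 and 29 genes from Hyi to Foxo6. In 3 places 2 successive genes were called in both comparisons. Scmh1 and Slfnl1 both rose, Zfp69 fell beside a rising Smap2, and the falling Gm12888 and rising 9530002B09Rik are 1364.4 kb apart.

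The adjoining stretches of the same length were counted in the same way. In the 10 Mb before the window, 3 of 75 genes (4.00%) were called against WT and 2 (2.67%) against P2KO. In the 10 Mb after it, nearer to the Padi genes, 34 of 187 (18.2%) were called against WT and 29 (15.5%) against P2KO. Over the rest of chromosome 4 these counts were 78 of 807 (9.67%) and 22 (2.73%), and over the other chromosomes 534 of 19517 (2.74%) and 183 (0.938%). Between P2KO and WT, 0 genes were called in the window and in these 2 stretches, 37 (4.58%) over the rest of chromosome 4 and 33 (0.169%) elsewhere. The shares are descriptions, since neighbouring genes are not independent, and whether they differ between stretches was not tested.

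**Figure D4:**
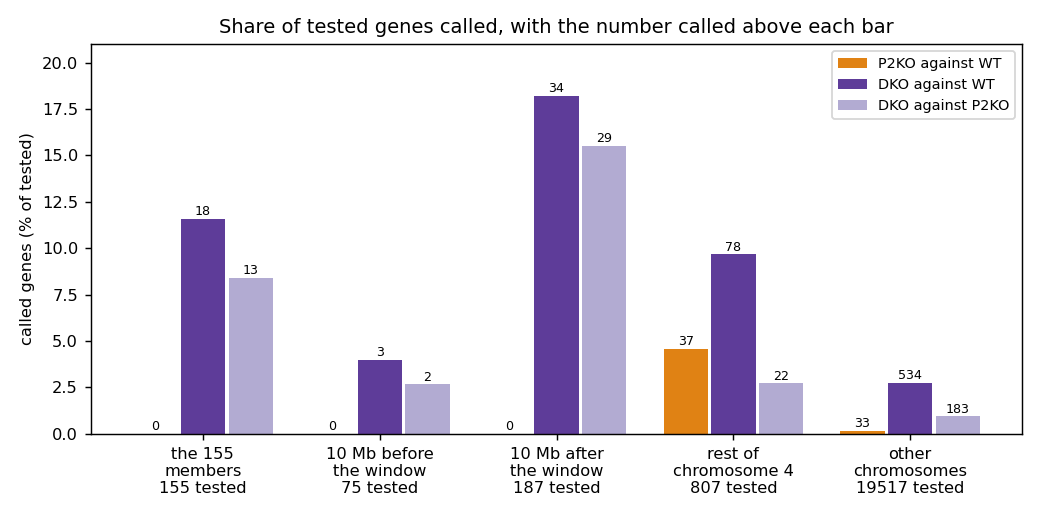
Share of tested genes called (y axis, % of the genes tested, from 0) for the 155 genes of the window, the 10 Mb before it, the 10 Mb after it, the rest of chromosome 4 and the other chromosomes, with 1 bar per comparison and the number of called genes above each bar. The share in the window was 11.6% in DKO against WT, above the 4.00% of the stretch before it and below the 18.2% of the stretch after it.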

How the data were processed

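RNA-seq was performed on 2 testis libraries each of WT, P2KO and DKO mice. Per the labels and the methods of the study, the authors prepared directional poly(A) libraries, trimmed the reads with Trim Galore and mapped and counted them with STAR against GRCm38 with an Ensembl annotation, and the deposited values are raw read counts per gene; software versions and the strand column counted are not given in the sources used here. The table was joined to GENCODE release 21 (Ensembl 96), in which all 55536 identifiers were found. The window and count minimum, with certain genes left out, define the 155 genes, not all of which are reported by name here. The genes and role lists were chosen with earlier results of these data known.

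Counts of all 6 libraries were fitted with edgeR 4.0.16 (R 4.3.3) by genotype after filterByExpr (minimum count 10) and TMM scaling. The quasi-likelihood test with Benjamini-Hochberg adjustment over 20744 genes gave all adjusted p-values, and the procedure was tested on simulated counts. Each SE was derived from the fitted log2 fold change and the F statistic of that test. It rests on a dispersion moderated over genes and is not the spread between the 2 mice of a genotype. Genes with so few reads in a genotype that a fitted fold change depends on the prior count are given as count ratios with exact 95% intervals. Alternatives comprised DESeq2 1.42.0, other scalings and filters, a replicate term and each library left out. Per the methods of the study, the 2 libraries of a genotype came from 2 mice, so the spread between them holds both animal and technical variation. Named genes are those called in any comparison, examples from the role lists and the 5 with the highest WT level per kb; values of their neighbours and overlapping genes, and of Gm12905, Kncn, Dmbx1 and Svbp, were added after their values were seen. Near-identical transcripts were found with BLAST 2.17.0 (at least 95% identity over 150 bases). RefSeq had no promoter entry used here for Smap2, 1700021J08Rik and Gm12925. The RNA totals of 21939393 to 27306679 reads limit low-count genes most.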

Additional observations from a re-analysis of the deposited data

How the results depend on the processing

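Apart from the pair that reached the count minimum through DKO alone, Slfnl1, Zfp69, Cap1 and Gm12925 were called in both DKO comparisons in every fit that left out 1 library. The same held for Oxct2a in DKO against WT and for 9930104L06Rik in DKO against P2KO. Each of these fits left 1 genotype with 1 library, so counts of called genes over them are descriptions only. In DKO against P2KO, the share of all genes called rose when a WT library was left out. That share fell when a P2KO or DKO library was left out, and the counts in the window moved the same way. The number of genes called ranged from 9 to 18 in DKO against WT, from 9 to 16 in DKO against P2KO and from 0 to 2 in P2KO against WT over these fits. DESeq2 called 11 genes in DKO against WT, both on all 6 libraries and on the compared genotypes alone, beside 2.72% and 1.58% of all genes with an adjusted p. In DKO against P2KO it called 9 and 7, beside 1.09% and 6.44%, and 9 and 4 of them were among the 13 called by edgeR. DESeq2 on all 6 libraries gave an adjusted p for 113 of the 155 genes against WT, and on the compared genotypes alone for 36 against P2KO, since its own filter removed the genes with lower counts. Counting only the genes that no other gene overlaps, 9 of 67 (13.4%) were called against WT and 8 of 67 (11.9%) against P2KO. Over all tested genes, with or without overlap, the shares were 3.22% and 1.21%. The counts of 9 and 8 include 9530002B09Rik, which reached the count minimum through DKO alone. No called direction reversed under any alternative run. Log2 fold changes that were not called changed sign in 7 cases when 1 library was left out. Over all such fits, Artn in DKO against P2KO ranged from -0.36 to 0.12, the latter without P2KO replicate 1. In P2KO against WT, Ptprf ranged from -0.07 to 0.30, Rragc from -0.01 to 0.11 and Smap2 from -0.02 to 0.06, and 9530002B09Rik, with at most 2 reads in each of these libraries, from -3.17 to 3.16. Of 775 gene-level values, 706 kept their direction and side of the threshold, 51 lost the call and 11 gained one, and 21 more had no DESeq2 adjusted p. Leaving out genes that meet the count minimum in DKO only was an alternative chosen after seeing the data. Other scalings moved the median log2 fold change of all genes by less than 0.03. Replicate numbers did not pair the libraries (correlations of deviations -0.0572, 0.0574 and -0.0502), and with a replicate block 16, 12 and 0 genes were called in DKO against WT, DKO against P2KO and P2KO against WT, beside 2.68%, 0.911% and 0.217% of all genes. Each genotype had 2 libraries, which left 3 residual degrees of freedom, and a gene that was not called is not shown to be equal.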
